A study of Mus musculus with 24 samples.

Results

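The chromatin around Mycn and 4 genes of the G1 phase of the cell cycle (Ccnd1, Ccnd2, Ccnd3 and Cdk6) was described from 7 ChIP-seq peak lists. These are 5 of 55413 annotated mouse genes, and the peaks taken were those that overlapped a gene body extended by 100 kb on either side, or by 500 kb for Mycn. This gave 620 of 368246 peaks. Mycn had been picked out because WT-only limb H3K27ac peaks are in excess in its 10 to 15 Mb block of chromosome 12, so its limb H3K27ac difference is given as a description and supports nothing. That reason names no H3K4me2, H3K27me3 or NIH3T3 value, although the genes were chosen with earlier results of these data known.

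The limb samples were E10.5 forelimb buds of 32 to 35 somites from WT and Shh-/- Swiss Webster embryos, pooled to 400000 cells per immunoprecipitation. The WT group held heterozygous littermates as well, by the study's methods. The cultured samples were NIH3T3, a line of mouse fibroblasts with an intact Hedgehog (HH) pathway, kept for 48 h in low serum at confluence with 400 nM purmorphamine, which activates the pathway receptor component SMO, or with DMSO (control), at 1000000 cells per immunoprecipitation. H3K27ac was mapped in all 4 of these conditions, H3K4me2 in both limb genotypes and H3K27me3 in the Shh-/- genotype alone. There were 14 ChIP and 10 input libraries.

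Mycn encodes N-Myc, a basic helix-loop-helix factor that binds E-boxes with its partner MAX and drives growth and cell cycle entry, and mice that lack it in limb mesenchyme form small limbs. Ccnd1, Ccnd2 and Ccnd3 encode the D-type cyclins, which bind CDK4 or CDK6. The kinases phosphorylate RB family proteins, which releases E2F factors to turn on genes for DNA synthesis. Mycn and D-type cyclins are known to respond to HH in several tissues. H3K27ac marks active enhancers and promoters, H3K4me2 also marks enhancers and promoters without acetylation, and H3K27me3 is the mark of Polycomb repression.

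Each list had been called once on the pooled replicates of a condition. From the lists alone, therefore, no list could be compared with a replicate of itself and no difference between conditions could be tested. The study itself compared the conditions with limma on the reads of the replicates. It reported most limb H3K27ac regions as present in both genotypes and nearly all H3K4me2 peaks as unchanged. An unshared peak here is thus a difference in calls and not a tested change. Peaks that met a peak from the other condition's list over at least 1 bp are called shared and the rest unshared (WT-only, Shh-/- only, control-only or purmorphamine-only). Shares are given with 95% Wilson intervals, which cover counting error alone, beside the same share over the whole list. Peak strength is given as the rank divided by the number of peaks in the list, in percent, where small values are strong peaks, and as the authors' highest log2 ratio of ChIP to input in the peak. Distances are from the most upstream annotated start to the peak centre, with negative values upstream. Read depth per library is unknown from these lists. Limb buds and NIH3T3 cells differed in H3K27ac antibody and library kit as well as in cell type, and these cannot be told apart.

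Markers of the labelled cells were acetylated in their lists. All 6 limb mesenchyme markers (such as Prrx1 and Tbx5) had a promoter H3K27ac peak in both limb lists, and all 6 fibroblast markers had one in both NIH3T3 lists. The markers did not separate the cells fully, since 3 of the 6 fibroblast markers also had one in each limb list and 3 of the 6 limb mesenchyme markers in each NIH3T3 list. None of 4 ectoderm, 3 blood or 2 hindlimb markers had one in a limb list, and of 3 endothelial markers 1 did in each (Cdh5 in WT and Pecam1 in Shh-/-). Both muscle precursor markers (Pax3 and Lbx1) had one in the Shh-/- list and neither in the WT list, and the part of such cells in the results below was not tested.

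Mycn lies on the minus strand of chromosome 12 (mm10, chr12:12936093-12941914). Its promoter carried H3K27ac in every list of that mark, H3K4me2 in both genotypes and no H3K27me3. In WT limb buds the promoter H3K27ac was a single peak of 4250 bp that ranked in the top 0.962% of its list, with a log2 ratio of 6.24. In Shh-/- limb buds the same stretch held 3 peaks with 3250 bp in all, the best of them at 6.22% of the list and a log2 ratio of 4.86. In NIH3T3 cells the condition without pathway activation had the stronger promoter peak: the best control peak stood at 10.7% with a log2 ratio of 4.06 and the purmorphamine peak at 29.3% with 3.33.

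The 172 bases just before the first annotated exon of Mycn are shown because the lists differ over them. They are taken from RefSeq (GRCm38.p6, chr12:12941915-12942086, minus strand, 5′ to 3′), and capitals mark TTTGGCGC, a form of the E2F binding motif.
Mycn promoter: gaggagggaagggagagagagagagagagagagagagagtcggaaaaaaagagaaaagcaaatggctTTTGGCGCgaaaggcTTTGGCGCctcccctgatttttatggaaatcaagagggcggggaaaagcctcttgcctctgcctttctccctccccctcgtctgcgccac
The motif stands at bases 68 to 75 and 83 to 90 from the 5′ end. TTTGGCGC on either strand was found in 169 of 32851 promoter sequences of the same table (0.514%), while CACGTG (the E-box), TTTCCCGC (another E2F motif) and GACCACCCA (the GLI motif) were not in these 172 bases. All 172 bases were inside H3K27ac peaks in WT limb buds and in purmorphamine-treated cells. In Shh-/- limb buds 35 of the 172 were, since the stretch fell into a gap between peaks, and in control cells 0 were. No H3K4me2 peak of either genotype covered any of them. The lists do not show whether the signal in the gap was absent or just under the calling limit.

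Across the 1005.82 kb Mycn window, limb H3K27ac was broader and more fragmented in WT than in Shh-/-. WT limb buds had 94 peaks over 54.4 kb and Shh-/- limb buds 60 peaks over 34.3 kb, a ratio of covered length of 1.59 where the whole lists gave 1.18. Of the 94 WT peaks, 59 were WT-only (62.8%, interval 52.7 to 71.9%, whole list 48.5%), and of the 60 Shh-/- peaks 13 were Shh-/- only (21.7%, 13.1 to 33.6%, whole list 38.4%). These counts are what the gene was picked on, so nothing is read from their distance to the whole list. With peaks within 1 kb of each other merged first, 40.0% of WT peaks were WT-only, next to 39.7% of the whole list.

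The WT-only peaks were short and weak beside the shared ones. Their median width was 200 bp against 850 bp for shared WT peaks, and their median rank was 63.2% against 18.1%. In the better-ranked 50% of the list, 20 of 50 WT peaks were WT-only (whole list 24.9%) and 3 of 34 Shh-/- peaks were Shh-/- only (whole list 17.3%). Of the 59 WT-only peaks, 22 lay within 500 bp of an Shh-/- peak and 15 (25.4%) were more than 5 kb from any, where over the whole list each of these was 37.1% of WT-only peaks. The shared peaks differed less: 21 of 35 ranked better in WT (60.0%, whole list 50.7%).

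WT-only calls were more frequent downstream of Mycn than upstream, which is again a description of values the gene was picked on. Upstream, beyond 5 kb from the start, WT limb buds had 50 peaks over 35.4 kb, of which 24 were WT-only, near the 48.5% of the whole list, and Shh-/- limb buds 44 peaks over 26.3 kb. Downstream, WT limb buds had 41 peaks over 14.1 kb, of which 33 were WT-only, and Shh-/- limb buds 12 peaks over 4.65 kb. Most of the WT-only calls were thus on the downstream side, where acetylation was sparser in both genotypes. No peak of either NIH3T3 list lay downstream beyond 5 kb.

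**Figure D1:**
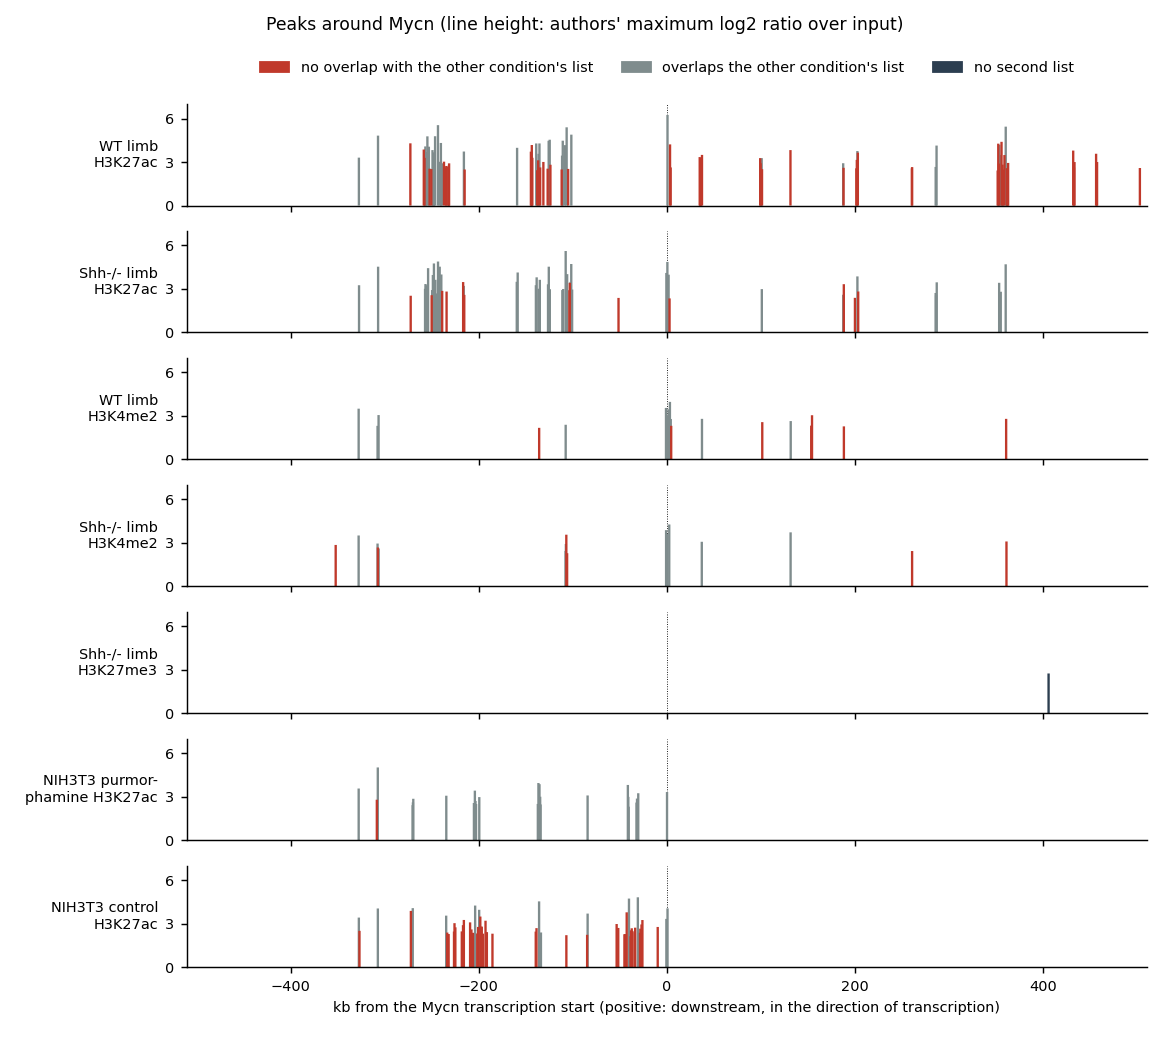
Peaks of the 7 lists in the Mycn window, with distance from the Mycn start in kb on the x axis and the authors' maximum log2 ratio over input as the height of each line, coloured by whether the peak overlapped the other condition's list. WT-only limb peaks fill the downstream side (33 of 41), and control-only peaks stand upstream alone (48 of 59) in NIH3T3 cells.

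To describe these peaks as units, H3K27ac peaks of the 4 lists within 5 kb of each other were joined, which gave 27 clusters in the Mycn window. In limb buds 14 clusters held peaks of both genotypes, 6 of WT alone and 1 of Shh-/- alone. Covered length was larger in WT in 17 clusters and larger in Shh-/- in 4. The strong clusters were the ones with both: at -259 to -231 kb peaks covered 15.9 kb in WT and 12.4 kb in Shh-/-, at -112 to -100 kb 7.85 and 6.25 kb, and at -145 to -124 kb 7.25 and 3.80 kb.

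Downstream, the cluster at 352 to 363 kb held 14 WT peaks over 6.55 kb and 3 Shh-/- peaks over 2.35 kb. Its strongest peak was shared and stood at 3.88% of the WT list and 7.61% of the Shh-/- list, so the difference lay in the peaks around it. The best-ranked WT-only peak of the window (chr12:12585800-12586499, 700 bp, 356 kb downstream, between genes) was in this cluster, at 13.1% of the list with a log2 ratio of 4.39 and 401 bp from the nearest Shh-/- peak. Clusters with WT peaks alone stood at 34.6 to 37.6 kb (5 peaks, 1.80 kb), 131 kb (1 peak), 260 kb (2 peaks), 432 to 434 kb (3 peaks), 456 to 457 kb (3 peaks) and 503 kb (1 peak). The best-ranked Shh-/- only peak was at -217 kb (300 bp, rank 29.2%, log2 ratio 3.48).

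The 200 bases around the highest signal of these WT-only peaks show stretches found in the WT list alone: the best-ranked peak (chr12:12585875-12586074, plus strand) and the lone peak of the cluster at 131 kb (chr12:12810475-12810674, plus strand), both from GRCm38.p6 and with no capitals because none of the motifs searched was in them.
Mycn WT-only best: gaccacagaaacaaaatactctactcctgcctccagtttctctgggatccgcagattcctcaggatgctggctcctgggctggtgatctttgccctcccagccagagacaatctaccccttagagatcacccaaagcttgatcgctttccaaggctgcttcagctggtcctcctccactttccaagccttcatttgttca
Mycn WT-only isolated: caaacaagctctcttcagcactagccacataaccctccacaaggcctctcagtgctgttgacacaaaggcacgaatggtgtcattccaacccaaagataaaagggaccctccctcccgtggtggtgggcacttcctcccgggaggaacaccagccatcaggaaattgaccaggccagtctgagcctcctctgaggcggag
An Shh-/- H3K4me2 peak covered 87.5% of the second stretch and none of the first, and neither was in an H3K27ac peak of the other 3 lists.

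H3K4me2, which the reason for choosing Mycn does not name, was near equal in length in the 2 genotypes of the window. WT limb buds had 20 peaks over 8.00 kb and Shh-/- limb buds 17 peaks over 8.50 kb, a ratio of 0.941 (whole lists 1.11). Unshared peaks were 8 of 20 in WT (40.0%, 21.9 to 61.3%, whole list 25.7%) and 6 of 17 in Shh-/- (35.3%, 17.3 to 58.7%, whole list 22.5%), and both intervals include the share of the whole list. At the WT-only H3K27ac cluster at 34.6 to 37.6 kb, H3K4me2 was called in both genotypes. At 131 kb its Shh-/- peak was 500 bp wide, at 23.2% of the list, and overlapped the acetylated peak, while its WT peak, 250 bp at 68.7%, lay just beside it.

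Few WT-only acetylated peaks around Mycn carried H3K4me2. It overlapped 3 of 59 (5.08%, 1.74 to 13.9%) WT-only and 6 of 35 (17.1%, 8.10 to 32.7%) shared WT peaks. Over the whole WT H3K27ac list the same shares were 16.7% and 46.5%. At the promoter the best-ranked peaks of the 2 marks went in opposite order: for H3K4me2 they stood at 29.8% in WT (log2 ratio 3.55) and at 7.30% in Shh-/- (4.27). The best WT H3K4me2 peak anywhere in the window stood at 14.2%. H3K4me2 peaks centred within 5 kb of the start covered 4.25 kb in WT and 4.8 kb in Shh-/-. H3K27me3 had 1 peak in the whole window, 150 bp wide and 406 kb downstream, at 21.3% of its list.

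NIH3T3 cells gave the larger difference around Mycn. Control cells had 61 H3K27ac peaks over 43.2 kb and purmorphamine-treated cells 25 peaks over 13.7 kb. Peaks thus covered 3.16 times more in control cells (whole lists 1.07), so that acetylation calls were fewer with the pathway switched on, where in limb buds they were fewer without Shh. Of the 61 control peaks 48 were control-only (78.7%, 66.9 to 87.1%, whole list 41.1%), and of the 25 purmorphamine peaks 1 was purmorphamine-only (4.00%, 0.710 to 19.5%, whole list 36.5%).

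This difference was also found among strong peaks, after merging and with a 100 kb flank. With peaks within 1 kb merged, 52.4% of control peaks were control-only (whole list 29.4%). Within 100 kb of the gene 17 of 22 control peaks were control-only (77.3%, 56.6 to 89.9%, whole list 41.1%). Within 20 kb 1 of 3 was control-only (33.3%, 6.15 to 79.2%), too few peaks to set against the whole list. In the better-ranked 50% of the lists 18 of 30 control peaks were control-only (whole list 16.9%) and 1 of 16 purmorphamine peaks was purmorphamine-only (whole list 16.0%). Of the 48 control-only peaks 5 lay within 500 bp of a purmorphamine peak (34.5% of control-only peaks over the whole list) and 16 were more than 5 kb from any (33.3%, whole list 26.5%). Among 13 shared control peaks 11 ranked better in control (84.6%, whole list 45.4%), with a median log2 ratio 0.61 higher. On the log2 scale of covered kb plus 1, control minus purmorphamine was 1.59 for Mycn, the median over 21938 protein-coding genes with 500 kb flanks was 0.08, and 86 of them (0.392%) had a higher value. Windows of neighbouring genes overlap, so these are not 86 separate places. In limb buds the same measure, WT minus Shh-/-, was 0.65, a value the gene was picked on, where the median over genes was 0.23 and 6.28% of genes were higher.

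The 2 clusters with the most control acetylation lay upstream and had no limb peak. At -45.2 to -25.3 kb control cells had 15 peaks over 12.9 kb, of which 13 were control-only, and purmorphamine-treated cells 6 peaks over 2.80 kb. At -210 to -191 kb the values were 17 peaks over 10.45 kb (15 control-only) and 5 peaks over 2.1 kb. At -273 to -269 kb peaks covered 3.80 kb in control and 0.8 kb in treated cells, and 6 clusters, among them -218 to -215 kb and -226 to -225 kb, had control peaks and no purmorphamine peak. No cluster had the reverse. Of the 27 clusters, 9 were found in limb buds and NIH3T3 cells, 12 in limb buds alone and 6 in NIH3T3 cells alone.

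The 2 strongest control peaks of the window were shared, and shorter and lower-ranked in treated cells. The one at -30.9 kb (chr12:12970650-12974949, 4300 bp) stood at 1.92% of the list with a log2 ratio of 4.82, and the one at -40.3 kb (3050 bp) at 2.14% with 4.73, where the best purmorphamine peak of the cluster was 450 bp wide, at 18.9% with 3.81. The strongest purmorphamine peak of the window (1550 bp, 1.99%, log2 ratio 5.02) was not at Mycn but over the start of Ddx1, an RNA helicase gene, 307 kb upstream, where the control peak stood at 9.35% with 4.05. At the Ddx1 start the order of the conditions was therefore the reverse of that at Mycn.

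The best-ranked control-only peak (chr12:13213300-13214899, 1600 bp, -272 kb, between genes, 14.3%, log2 ratio 3.88) is shown by the 200 bases around its highest signal (chr12:13214625-13214824, plus strand, GRCm38.p6), where WT limb buds had a peak too.
Mycn control-only best: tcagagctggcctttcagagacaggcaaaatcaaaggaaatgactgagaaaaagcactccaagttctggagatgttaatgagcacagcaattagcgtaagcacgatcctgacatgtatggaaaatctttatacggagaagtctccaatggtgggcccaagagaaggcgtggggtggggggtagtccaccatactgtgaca
All 200 bases lay inside a WT limb H3K27ac peak and none inside an Shh-/- or purmorphamine peak. The whole control peak also overlapped a 100 bp Shh-/- peak, which adjoined the WT one. Another control-only peak had the opposite limb order: in the 200 bases around the highest signal of the peak at -216 kb (1150 bp, 27.2%), Shh-/- peaks covered 87.5%, WT peaks 37.5% and purmorphamine peaks none. None of the motifs searched was in the bases shown. The purmorphamine-only peak of the window was 200 bp wide, at -308 kb, 987 bp from the Ddx1 start, at 47.8% of its list.

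**Figure D2:**
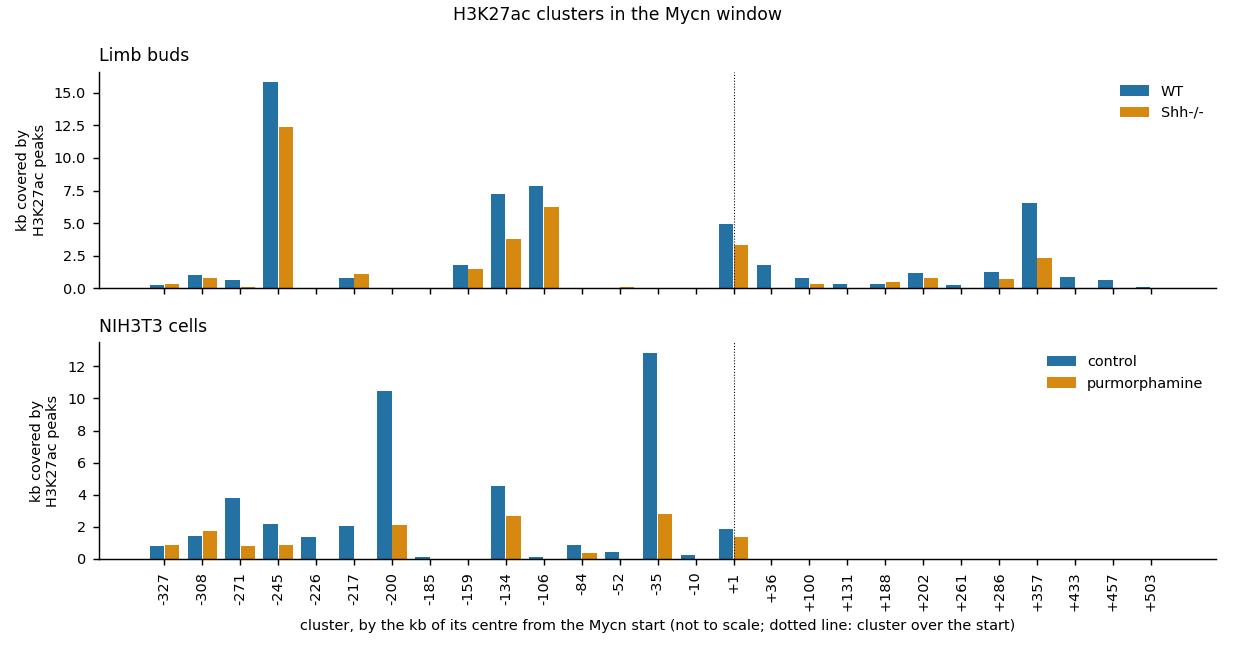
Length covered by H3K27ac peaks, in kb on the y axis, in each of the 27 clusters of the Mycn window, ordered along the x axis by distance from the start and not to scale, for limb buds (top) and NIH3T3 cells (bottom). WT bars are higher than Shh-/- bars in 17 clusters and control bars higher than purmorphamine bars in 13, while the 2 tallest control clusters (12.85 and 10.45 kb) have no limb bar.

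The 10 to 15 Mb block held 147 WT limb H3K27ac peaks, 98 of them WT-only (66.7%), and without the Mycn window 39 of 53 (73.6%). This share of the block is what Mycn was picked on, and nothing is read from it. In NIH3T3 cells control-only peaks were 88 of 156 in the block (56.4%) and 40 of 95 without the Mycn window (42.1%), next to 41.1% in the whole list. At the downstream edge of the window the last WT peak inside was WT-only (503 kb, rank 87.9%) and the next one outside was shared (521 kb, 22.5%). At the upstream edge the last inside was shared (-327 kb) and the next outside WT-only (-504 kb).

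Each of the 4 G1 genes had more acetylated length in WT than in Shh-/- limb buds, as did the median gene of the genome. Their windows held 49 WT H3K27ac peaks over 30.8 kb and 41 Shh-/- peaks over 18.3 kb, a ratio of 1.68 where the whole lists gave 1.18. WT-only peaks were 22 of 49 (44.9%, 31.9 to 58.7%, whole list 48.5%) and Shh-/- only peaks 10 of 41 (24.4%, 13.8 to 39.3%, whole list 38.4%). The WT share was thus near that of the whole list. The Shh-/- share was below that of its whole list, which its interval includes. The ratio of covered length was 1.95 for Ccnd1, 1.74 for Ccnd2, 1.26 for Ccnd3 and 2.14 for Cdk6. On the log2 scale of covered kb plus 1, with 100 kb flanks, WT minus Shh-/- had a median of 0.15 over protein-coding genes, and 3.66% of genes were higher than Ccnd1, 5.55% than Ccnd2, 29.4% than Ccnd3 and 1.82% than Cdk6. H3K4me2 differed little, with 38.5 kb in WT and 35.1 kb in Shh-/- (ratio 1.10, whole lists 1.11). Its unshared shares were 14 of 55 (25.5%, whole list 25.7%) and 10 of 51 (19.6%, whole list 22.5%).

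In NIH3T3 cells the 4 genes went in different directions. Pooled, control peaks covered 43.0 kb and purmorphamine peaks 45.5 kb. Control-only peaks were 25 of 68 (36.8%, 26.3 to 48.6%, whole list 41.1%) and purmorphamine-only peaks 20 of 62 (32.3%, 22.0 to 44.6%, whole list 36.5%), both close to the whole lists. By gene, the ratio of control to purmorphamine length was 0.756 for Ccnd1, 0.814 for Ccnd3, 1.15 for Ccnd2 and 1.44 for Cdk6. All 4 were below the ratio of 3.16 at Mycn. Of the 22 WT-only limb peaks at these genes 11 (50.0%, 30.7 to 69.3%) overlapped WT H3K4me2 and 11 overlapped a peak of each NIH3T3 list. At Mycn 3, 4 and 5 of 59 (5.08, 6.78 and 8.47%) overlapped WT H3K4me2, the purmorphamine list and the control list. Over all WT-only peaks of the list these shares were 16.7, 24.5 and 24.2%. The windows of these genes reach 100 kb and hold promoters of other genes, and the Mycn window reaches 500 kb, so the shares rest on different surroundings.

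**Figure D3:**
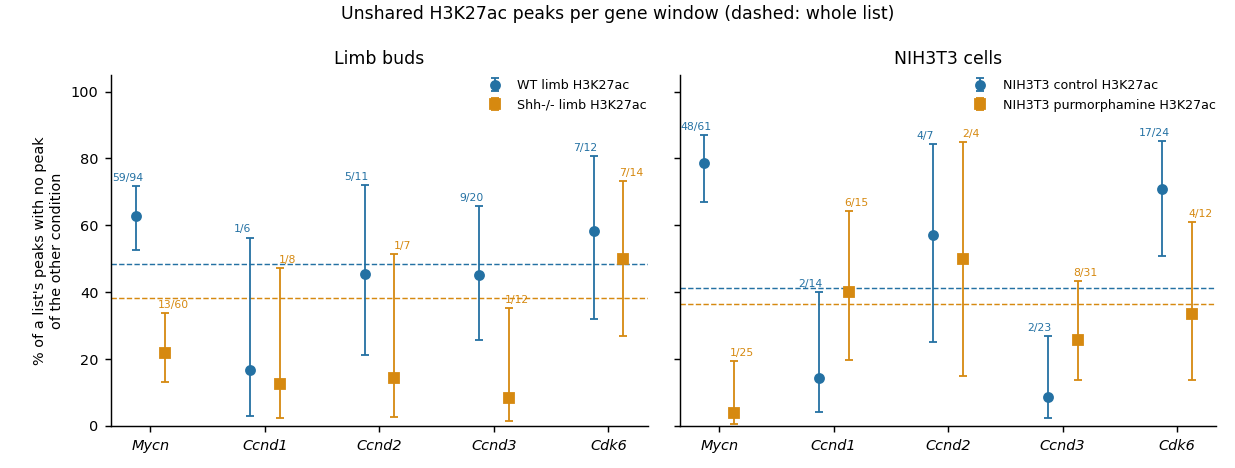
Share of H3K27ac peaks with no peak of the other condition, in percent on the y axis, for each gene on the x axis in limb buds (left) and NIH3T3 cells (right), with 95% Wilson intervals as bars, counts above and whole-list shares as dashed lines. In NIH3T3 cells Mycn has the highest control share (48 of 61) and the lowest purmorphamine share (1 of 25) of the 5 genes, and the control intervals of Mycn and Cdk6 overlap.

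Ccnd1 (chr7:144929931-144939925, minus strand) encodes cyclin D1. Its limb acetylation was concentrated at the promoter and the 4 kb before it, with a second site at -91 kb present in both genotypes. WT-only peaks were 1 of 6 (16.7%, whole list 48.5%) and Shh-/- only peaks 1 of 8 (12.5%, whole list 38.4%). The former was 100 bp at 1.72 kb (64.2%) and the latter 250 bp over the start of LTO1 at 24.6 kb (56.4%). The difference in covered length thus lay mostly in the width of shared peaks. Of 5 shared WT peaks 4 ranked better in WT (whole list 50.7%), with median ranks of 22.6% in both genotypes. The best Shh-/- peak of the window stood at 11.6%. At the promoter the best WT peak was 1550 bp wide, at 5.43% with a log2 ratio of 5.18, and the Shh-/- peak 500 bp, at 31.1% with 3.42. The best promoter H3K4me2 peak ranked better in Shh-/- (0.691% of the list, 2000 bp, log2 ratio 5.00) than in WT (24.1%, 3.69). The best WT H3K4me2 peak anywhere in the window stood at 7.90%. Over the H3K27ac cluster at the start H3K4me2 peaks covered 5 kb in each genotype.

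In NIH3T3 cells the Ccnd1 promoter was the reverse of the Mycn promoter. The best purmorphamine peak stood at 4.59% with a log2 ratio of 4.55 and the best control peak at 24.2% with 3.46. Purmorphamine-only peaks were 6 of 15 (40.0%, 19.8 to 64.3%, whole list 36.5%) and control-only peaks 2 of 14 (14.3%, 4.01 to 39.9%, whole list 41.1%). The 2 best-ranked examples were a 450 bp purmorphamine-only peak at -91.8 kb (36.9%), which overlapped the limb site named above in WT, and a 450 bp control-only peak at -6.56 kb (46.7%).

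The Ccnd1 window held most of the H3K27me3 found around the 5 genes by length, 11.05 of 15.2 kb, but 6 of the 17 peaks, next to 7 at Ccnd3. The 6 Ccnd1 peaks all lay downstream of Ccnd1 and over or beside FGF ligand genes. They were 3350 bp over Fgf3 at 101 kb (0.979% of the list) with a 200 bp peak beside it, 3950 bp over Fgf4 at 77.4 kb (2.77%) with a 250 bp peak beside it, then 2150 bp over Fgf15 at 42.6 kb (4.87%) and 1150 bp beside it at 44.5 kb (7.14%). No H3K27ac peak of any list overlapped these 6 peaks, and the Ccnd1 promoter had none of that mark.

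Ccnd2 (chr6:127125162-127152193, minus strand) encodes cyclin D2 and had the smallest limb difference in the log2 ratio of the best promoter H3K27ac peak. Its best promoter H3K27ac peak had the same 1300 bp in WT (3.12%, log2 ratio 5.59) and Shh-/- (4.60%, 5.09), and in NIH3T3 cells it was 2350 bp with purmorphamine (1.54%, 4.99) and 2300 bp in control (1.67%, 4.80). WT limb buds had 3 promoter peaks over 1650 bp, 2 of them WT-only. Over the cluster at the start, H3K27ac peaks covered 3.55 kb in WT and 2.55 kb in Shh-/-. The cluster with the largest limb difference in covered length lay elsewhere. At 100 kb downstream a WT peak of 1600 bp (6.01%, log2 ratio 5.09) was set against an Shh-/- peak of 100 bp (91.4%, 2.48), while at -100 kb both genotypes had a broad peak (2000 bp at 6.43% and 1600 bp at 12.5%).

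All 6 shared WT peaks of Ccnd2 ranked better in WT (whole list 50.7%). WT-only peaks were 5 of 11 (45.5%, 21.3 to 72.0%, whole list 48.5%) and Shh-/- only peaks 1 of 7 (14.3%, 2.57 to 51.3%, whole list 38.4%). The 5 WT-only peaks were 150 to 250 bp wide and all within 4 kb of the start, the best-ranked at 0.211 kb (41.9%), and the Shh-/- only peak was 250 bp at -3.76 kb (40.5%). The best promoter H3K4me2 peak was again the other way, 0.551% in Shh-/- (log2 ratio 5.04) and 34.8% in WT (3.43). The best WT H3K4me2 peak anywhere in the window stood at 0.694%. Over the H3K27ac cluster at the start H3K4me2 peaks covered 5.65 kb in WT and 5.5 kb in Shh-/-. H3K27me3 had 2 weak peaks, 350 bp at -3.11 kb (45.6%) and 100 bp at -53.4 kb (89.1%). Control-only NIH3T3 peaks were 4 of 7 (57.1%, 25.0 to 84.2%, whole list 41.1%) and purmorphamine-only peaks 2 of 4 (50.0%, 15.0 to 85.0%, whole list 36.5%). All were weak, the best-ranked at 51.4% of the control list and 71.8% of the purmorphamine list. Among 3 shared control peaks 0 ranked better in control (whole list 45.4%). Their median log2 ratio difference, control minus purmorphamine, was -0.639, so shared peaks went the other way from covered length.

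Ccnd3 (chr17:47505051-47599691, plus strand) encodes cyclin D3 and has 2 promoter regions, a first start and internal starts about 89 kb further on. At the first start WT limb buds had a 250 bp WT-only peak (46.6%, log2 ratio 3.16) and Shh-/- limb buds none, although H3K4me2 was called there in both. At the internal starts the order was reversed, with the best peak at 4.65% in Shh-/- (5.08) and at 18.9% in WT (4.04). Ccnd3 was the gene with the least covered-length difference in limb buds, and 4 of 11 shared WT peaks ranked better in WT (36.4%, whole list 50.7%). WT-only peaks were 9 of 20 (45.0%, 25.8 to 65.8%, whole list 48.5%) and Shh-/- only peaks 1 of 12 (8.33%, 1.49 to 35.4%, whole list 38.4%). The best-ranked WT-only peak was 300 bp wide beside the internal start (chr17:47593000-47593299, 29.5%), and the Shh-/- only peak 200 bp at 107 kb (93.6%).

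Purmorphamine went with stronger acetylation at Ccnd3. Among 21 shared control peaks 2 ranked better in control and the other 19 in treated cells, against 45.4% better in control over the whole list. At the internal starts the best purmorphamine peak stood at 1.12% (log2 ratio 5.05) and the best control peak at 6.85% (4.44). From -3.50 to 24.3 kb, which takes in the first start, the first intron and the neighbouring Taf8 start, treated cells had 18 peaks over 10.95 kb and control cells 11 over 7.35 kb, next to 1.90 kb in WT and 1.25 kb in Shh-/- limb buds. Purmorphamine-only peaks were 8 of 31 (25.8%, 13.7 to 43.2%, whole list 36.5%), the best-ranked at 24.1 kb in an intron (350 bp, rank 35.2%). Control-only peaks were 2 of 23 (8.70%, 2.42 to 26.8%, whole list 41.1%), the best-ranked at 190 kb in Frs3 (150 bp, rank 50.6%). H3K27me3 had 7 peaks, all more than 36 kb upstream, none over Ccnd3.

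In that fibroblast stretch lay the 1 exact GLI motif among 460 H3K27ac peaks of the 5 windows, and it is shown for that reason (chr17:47514050-47514249, plus strand, GRCm38.p6, in an intron of Ccnd3 at 9.17 kb). Capitals mark TGGGTGGTC, which is GACCACCCA read on the other strand.
Ccnd3 GLI match: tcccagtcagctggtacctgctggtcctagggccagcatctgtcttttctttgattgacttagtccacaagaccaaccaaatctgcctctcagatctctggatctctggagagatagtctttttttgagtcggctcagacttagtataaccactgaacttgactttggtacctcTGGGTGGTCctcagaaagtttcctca
The purmorphamine peak that holds it (chr17:47513250-47514249, 16.6% of the list) was shared, but the 200 bases were covered in full in treated cells and not at all in control cells or limb buds. An exact GACCACCCA on either strand was in 0.401% of WT, 0.266% of Shh-/-, 0.725% of purmorphamine and 0.592% of control H3K27ac peaks. In the Mycn window it was in 0 of 94 WT peaks (interval 0 to 3.93%) and 0 of 25 purmorphamine peaks (0 to 13.3%), which at these rates and numbers says nothing of GLI binding there. A further match stood in a WT H3K4me2 peak 3.35 kb upstream of Ccnd2.

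The 250 bases before the first Ccnd3 exon (chr17:47504801-47505050, plus strand, GRCm38.p6) are given next to those before the first Cdk6 exon (chr5:3343643-3343892, plus strand), since limb H3K27ac differed over both. Capitals mark CACGTG, which 7.15% of the promoter sequences hold.
Ccnd3 first promoter: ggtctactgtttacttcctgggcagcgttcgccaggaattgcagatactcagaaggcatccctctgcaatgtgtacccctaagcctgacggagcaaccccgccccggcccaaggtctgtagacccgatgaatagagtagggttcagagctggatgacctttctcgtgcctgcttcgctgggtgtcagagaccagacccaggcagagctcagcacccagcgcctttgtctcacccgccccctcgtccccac
Cdk6 promoter: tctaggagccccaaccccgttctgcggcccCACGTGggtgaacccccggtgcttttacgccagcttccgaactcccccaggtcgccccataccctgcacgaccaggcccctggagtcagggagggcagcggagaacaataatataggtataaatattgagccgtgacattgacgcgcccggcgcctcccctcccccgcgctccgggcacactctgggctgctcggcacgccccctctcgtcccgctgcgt
H3K27ac peaks covered 51 of the 250 Ccnd3 bases in WT, 0 in Shh-/- and 249 in each NIH3T3 list. They covered all 250 Cdk6 bases in WT and both NIH3T3 lists and 107 in Shh-/-. H3K4me2 covered both sequences in full in both genotypes. Neither held an E2F motif as searched. Ccnd1 and Ccnd2 are named here without promoter sequence.

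Cdk6 (chr5:3341485-3531008, plus strand) encodes a kinase partner of the D-type cyclins and had the largest ratio of limb acetylated length among the 5 genes, 9.00 kb in WT and 4.20 kb in Shh-/-. The promoter peak was 3300 bp in WT (13.8%, log2 ratio 4.34), and in Shh-/- it was 250 bp (22.3%, 3.73), with another 250 bp peak inside the WT peak's span at -1.22 kb (30.0%). H3K4me2 spanned the same promoter in both, 4000 bp in WT (1.03%) and 3500 bp in Shh-/- (6.49%). The best promoter H3K4me2 peak at Cdk6 was thus the better-ranked in WT, unlike at Mycn, Ccnd1 and Ccnd2. Within the gene both genotypes had an intronic peak at 56 kb, 2050 bp in WT (8.84%) and 1600 bp in Shh-/- (7.51%).

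Unshared limb peaks at Cdk6 were 7 of 12 in WT (58.3%, 32.0 to 80.7%, whole list 48.5%) and 7 of 14 in Shh-/- (50.0%, 26.8 to 73.2%, whole list 38.4%), and both intervals include the share of the whole list. WT-only peaks of 750 and 400 bp stood at 61.1 and 62.0 kb (30.9 and 31.6%). The best-ranked WT-only peak was 250 bp at 110 kb (chr5:3453850-3454099, 24.7%, log2 ratio 3.77), and the best-ranked Shh-/- only peak, 200 bp at 69.5%, lay 101 bp away from it. The strongest limb peak of the window was shared and not at Cdk6 but 200 kb downstream, near the start of Fam133b (5.17% in WT and 3.24% in Shh-/-). H3K27me3 had 1 peak of 100 bp inside the gene (75.9%).

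In NIH3T3 cells Cdk6 was the G1 gene most like Mycn in direction, with less difference in strength. Control-only peaks were 17 of 24 (70.8%, 50.8 to 85.1%, whole list 41.1%) and purmorphamine-only peaks 4 of 12 (33.3%, 13.8 to 60.9%, whole list 36.5%). Of 7 shared control peaks 6 ranked better in control (85.7%, whole list 45.4%). The best-ranked control-only peak was 300 bp at 196 kb (38.0%) and the best-ranked purmorphamine-only peak 200 bp at -3.34 kb (50.9%). The promoter peaks were alike, 3550 bp in control (5.17%, log2 ratio 4.48) and 3650 bp with purmorphamine (6.45%, 4.50). The control-only peaks were short, with a median width of 150 bp and a median rank of 72.8%, and 2 of the 7 better-ranked control peaks were control-only. At Mycn the medians of control-only peaks were 250 bp and 61.7%.

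**Figure D4:**
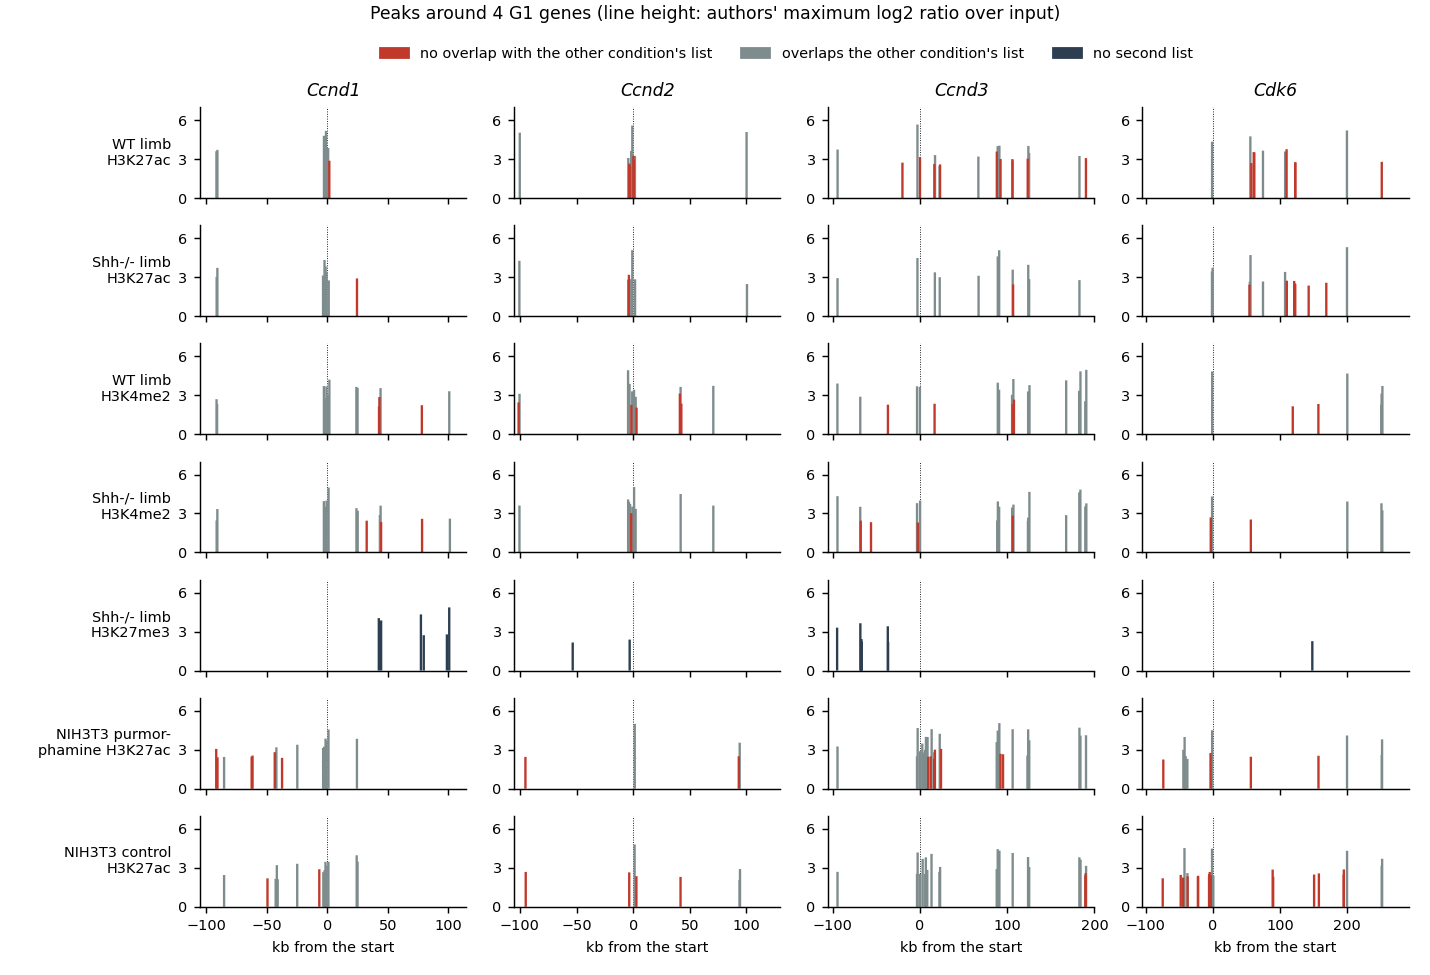
Peaks of the 7 lists in the windows of Ccnd1, Ccnd2, Ccnd3 and Cdk6 (columns), with distance from the start in kb on the x axis and the authors' maximum log2 ratio over input as line height. H3K27me3 stands over the FGF genes downstream of Ccnd1 (6 peaks), and unshared lines are most frequent at Cdk6 in control NIH3T3 cells (17 of 24).

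Set side by side, and with both Ccnd3 promoter regions counted as 1, the 5 genes carried promoter H3K27ac and H3K4me2 in every list of those marks. The first Ccnd3 start alone had no H3K27ac peak in Shh-/-. Of 35 combinations of gene and list, 30 had a promoter peak, and the 5 without were the 5 genes in the H3K27me3 list. Over 21938 protein-coding genes the shares with a promoter peak were 43.3% (WT H3K27ac), 40.4% (Shh-/- H3K27ac), 63.6 and 63.1% (H3K4me2), 12.6% (H3K27me3), 52.3% (purmorphamine) and 52.2% (control). The authors' log2 ratio of the best limb H3K27ac peak was higher in WT at Mycn, Ccnd1, Ccnd2 and Cdk6 and lower in WT at the internal Ccnd3 starts. The best H3K4me2 peak had the higher ratio in Shh-/- at Mycn, Ccnd1, Ccnd2 and the first Ccnd3 start, and the higher ratio in WT at Cdk6 (4.84 and 4.31) and the internal Ccnd3 starts (3.98 and 3.93). Over the whole WT H3K4me2 list 46.2% of shared peaks ranked better in WT, with a median log2 ratio difference, WT minus Shh-/-, of -0.112. The lists were scaled separately, so ratios between lists are a description.

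**Figure D5:**
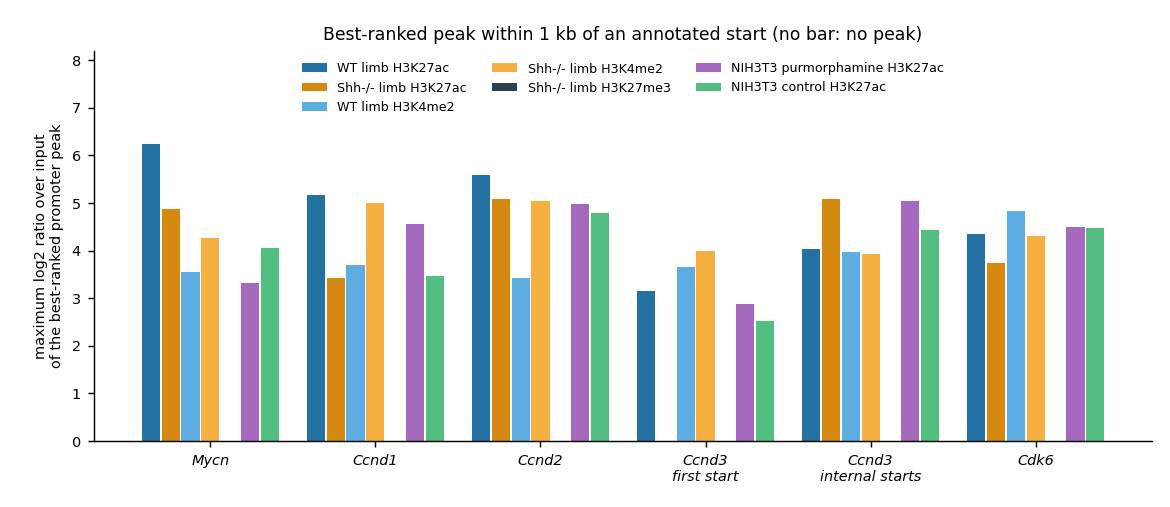
Authors' maximum log2 ratio over input (y axis) of the best-ranked peak within 1 kb of an annotated start, for each promoter (x axis) and list (colours), with no bar where a list has no peak. H3K27me3 has no bar at any promoter, and the WT H3K27ac bar exceeds the Shh-/- bar at Mycn (6.24 and 4.86) but not at the internal Ccnd3 starts (4.04 and 5.08).

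The genes with the most similar peak lengths over the 7 lists, by Euclidean distance of log2(kb + 1) with the same flanks, were Map3k7, Wdsub1 and Dusp6 for Mycn, Mmp9, Hspb6 and Lin37 for Ccnd1, Atp8a2, Map3k13 and Cecr2 for Ccnd2, Ap3d1, Asphd1 and Kctd13 for Ccnd3, and Nrde2, Psmc1 and Prtg for Cdk6. The nearest to Mycn, at a distance of 0.893, was Map3k7, with 35.3 kb in WT and 32.7 kb in Shh-/- limb buds and 35.4 kb in control and 18.0 kb in treated cells.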

How the data were processed

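ChIP-seq peak lists of 7 conditions were used, from 24 libraries in 14 groups taken from the labels. The members and gene lists were chosen with earlier results of these data known. The authors called peaks with CisGenome on mm10 against input, entering 2 replicates of a condition together. The submitters' processing notes also name Bowtie2 2.2.5 and limma. For each peak the authors deposited a false discovery rate (a q-value), a score (the largest statistic of ChIP against input, on which the rank is ordered), the largest log2 ratio over input, and −log10 of the smallest Poisson p-value. The lowest score was 3.00 and the lowest −log10 value 5.00, as deposited, while the highest false discovery rate ranged from 0.000805 to 0.255, so the lists were limited by score and p-value. Within each list they served for ranking, filtering and description.

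The autosomes and sex chromosomes were kept, which left out 137 peaks. Gene positions came from GENCODE vM21 (basic) and sequences from RefSeq GRCm38.p6, and all peak ends lay inside the GRCm38 chromosome lengths. A promoter was 1 kb on either side of any annotated start. Named peaks were the best-ranked unshared H3K27ac peaks of each member, its best promoter peaks and its H3K27me3 peaks, and peaks singled out beyond these were chosen after their values were seen. Clusters (5 kb gap) were also defined after the data were seen. Overlaps were computed in Python 3.11.15 with pandas 2.3.3 and numpy 2.4.6, and checked on simulated intervals and with bedtools 2.31.1. No test was made, since no condition had a replicate list. Alternatives were the overlap, the part of each list, merging, base pairs, the flank, a false discovery rate under 0.05, the promoter width and 1 mismatch in the motif.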

Additional observations from a re-analysis of the deposited data

How the results depend on the processing

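Of 108 alternatives to the 12 shares of unshared peaks, 66 stayed inside the interval of the reported value and 42 moved outside it. The side of the whole list, taken under the same setting, was kept in 9 of 9 settings for the Mycn shares of WT, Shh-/- and purmorphamine H3K27ac and for the 4-gene shares of Shh-/- H3K27ac, Shh-/- H3K4me2 and purmorphamine H3K27ac. It was kept in 8 of 9 for both control shares, 7 of 9 for Shh-/- H3K4me2 at Mycn and WT H3K4me2 at the 4 genes, 5 of 9 for WT H3K4me2 at Mycn and 4 of 9 for WT H3K27ac at the 4 genes.

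With a peak within 500 bp counted as shared, the Mycn shares were 39.4% (WT H3K27ac), 5.00% (Shh-/- H3K27ac) and 0% (purmorphamine), and the 4-gene shares 20.4% (WT H3K27ac), 12.2% (Shh-/- H3K27ac), 10.9% (WT H3K4me2), 5.88% (Shh-/- H3K4me2) and 23.5% (control). With the better-ranked 50% of both lists, the Mycn shares were 52% (WT H3K27ac), 8.82% (Shh-/- H3K27ac), 0% (WT H3K4me2) and 60.0% (control), and the 4-gene shares 9.52% (Shh-/- H3K27ac), 12.9% (WT H3K4me2), 21.6% (purmorphamine) and 12.5% (control). The whole lists then gave 40.3% (WT H3K27ac), 29.3% (Shh-/- H3K27ac), 21.0% (WT H3K4me2), 26.8% (purmorphamine) and 30.4% (control). With the better-ranked 50% against the whole other list, the Mycn shares were 40.0% (WT H3K27ac), 8.82% (Shh-/- H3K27ac), 0% (WT H3K4me2), 16.7% (Shh-/- H3K4me2) and 60.0% (control), and the 4-gene shares 20.0% (WT H3K27ac), 4.76% (Shh-/- H3K27ac), 3.23% (WT H3K4me2), 0% (Shh-/- H3K4me2), 8.11% (purmorphamine) and 9.38% (control). Without limiting to these genes the shares were 24.9% (WT H3K27ac), 17.3% (Shh-/- H3K27ac), 3.59% (WT H3K4me2), 4.03% (Shh-/- H3K4me2), 16.0% (purmorphamine) and 16.9% (control). With peaks within 1 kb merged, the shares were 40.0% (WT H3K27ac), 0% (purmorphamine) and 52.4% (control) at Mycn and 23.1% (WT H3K27ac) at the 4 genes. The merged whole lists gave 39.7% (WT H3K27ac), 27.4% (purmorphamine) and 29.4% (control). An overlap of at least 50% gave 90.2% (control, whole list 51.2%) at Mycn and 63.3% (WT H3K27ac, whole list 58.9%) at the 4 genes. Base pairs gave 46.8% (WT H3K27ac, whole list 40.3%) at Mycn and 20.5% (control, whole list 34.0%) at the 4 genes. The 4-gene base-pair share of WT H3K27ac, 52.1%, stayed inside its interval but was above the whole list. A flank of 100 kb at Mycn gave 83.3% (WT H3K27ac, 10 of 12), 0% (Shh-/- H3K4me2) and 0% (purmorphamine), and 20 kb gave 14.3% (WT H3K4me2), 0% (Shh-/- H3K4me2), 0% (purmorphamine) and 33.3% (control, 1 of 3). The flank does not change the whole-list shares of 48.5% (WT H3K27ac), 25.7% (WT H3K4me2), 22.5% (Shh-/- H3K4me2), 36.5% (purmorphamine) and 41.1% (control). Fewer peaks were counted under the stricter settings and the smaller flanks, and the causes of the moves were otherwise not tested.

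Allowing 1 mismatch raised the H3K27ac peaks with a GLI motif from 1 to 63 of 460. Clusters of the Mycn window joined over 10 kb rather than 5 kb, chosen after seeing the data, had more acetylated length in WT in 17 of 21 rather than 17 of 27 (81.0% and 63.0%). With the same change, more length in control than in purmorphamine was found in 7 of 21 rather than 13 of 27 (33.3% and 48.1%). No paired analysis was possible because each list pools both replicates of its condition, and for the same reason no replicate could be left out. Depth per library is not given in the lists, so an unshared peak may be one that fell just short of the calling limit in the other condition.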

Other observations

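The other genes of the MYC network and of the G1 to S transition, a list of 30 taken with 100 kb on either side, were acetylated at most promoters. A promoter H3K27ac peak was found at 25 of 30 in WT limb buds, 24 in Shh-/- limb buds, 27 in purmorphamine-treated and 26 in control NIH3T3 cells, and H3K4me2 at 30 in WT and 29 in Shh-/- limb buds. Unshared H3K27ac peaks in their windows were 69 of 203 in WT (34.0%, whole list 48.5%) and 52 of 194 in Shh-/- limb buds (26.8%, whole list 38.4%). In NIH3T3 cells they were 110 of 463 with purmorphamine (23.8%, whole list 36.5%) and 160 of 507 in control (31.6%, whole list 41.1%). Of the 30 genes, 9 had a control-only share above that of the whole control list, among them Myc, a relative of Mycn, with 22 of 34 control peaks unshared and 5 of 21 purmorphamine peaks.

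H3K27me3 was found at 5 of the 30 promoters, not far from the share of 12.6% over all protein-coding genes, so nothing is read from the count. These were Cdkn1a, Cdkn1c, Cdkn2a, Cdkn2b and Cdkn2c, which encode inhibitors of the kinases that D-type cyclins activate. Of the other CDK inhibitor genes in the list, Cdkn1b and Cdkn2d had no such peak. Cdkn2a and Cdkn2b had 21 H3K27me3 peaks in their overlapping windows and no H3K27ac peak in either limb list. Cdkn1c and Cdkn2c carried promoter H3K27ac in both genotypes as well as H3K27me3 in Shh-/- limb buds.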
